A study of Homo sapiens with 10 samples.

Results

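The genes described here are 10 genes of the major histocompatibility complex (MHC) class II pathway, out of 62700 genes in the deposited table. They are the transactivator CIITA, the 3 subunits of the RFX complex (RFX5, RFXANK and RFXAP), the peptide-binding chains HLA-DRA, HLA-DRB1, HLA-DPA1 and HLA-DPB1, the peptide exchange chain HLA-DMA, and the invariant chain CD74. Rows were taken by gene name, and all 10 names were found. The genes were chosen with their difference between CCAR1 knockout and parental cells already known, so that difference is described here without a test.

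Polyadenylated RNA was sequenced from 5 CCAR1 knockout and 5 parental samples of RPE p53-/- cells, a human retinal pigment epithelial line in which both groups lack p53 and which was grown in the same serum-containing medium. No cytokine treatment is named in the labels. The labels do not say whether the knockout cells were 1 clone or whether replicates were separate cultures. The p-values below therefore rest on sample-to-sample spread that may be technical only, and clone and genotype cannot be told apart. CCAR1 itself was at 106 ± 18.5 CPM (counts for every 1e6 of a library's scaled size) in knockout and 148 ± 23.5 CPM in parental cells (SD, n = 5 each), or 71.4% of the parental level. A gene-level count cannot tell edited from unedited CCAR1 transcripts. Replicates 1 to 3 of both genotypes held 52.6 to 65.2 M counts (M, 1e6) and replicates 4 and 5 held 320.6 to 385.4 M; they are called the shallow and the deep libraries. The epithelial genes KRT8 and KRT18 and the pigment epithelium factors MITF and OTX2 were present in every library, whereas RPE65, the isomerase that defines mature pigment epithelium, was at 0.00595 to 0.0558 CPM in knockout and at 0 to 0.189 CPM in parental libraries. The pigment epithelium markers RLBP1, TYR and TYRP1 were low as well, at most 0.112, 0.0472 and 0.248 CPM in any library. BEST1 and PMEL reached at most 2.57 and 0.931 CPM.

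MHC class II molecules are surface heterodimers of an alpha and a beta chain that present peptides from endosomes to CD4+ T cells. The invariant chain CD74 occupies the groove during transport, and HLA-DM, a dimer of HLA-DMA and HLA-DMB, exchanges the last CD74 fragment for peptide. Their genes share a promoter module in which the X box is bound by the RFX complex and CREB-family factors and the Y box, an inverted CCAAT, by NF-Y. RFX and NF-Y are present in most cells. CIITA does not bind DNA itself but is recruited to this module, and it is the factor that limits class II transcription. Epithelial cells usually lack class II until interferon-gamma switches CIITA on, while dendritic cells, macrophages and B cells express it constitutively.

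The promoter letters at the class II genes are shown because they are the site on which the 4 regulators act together. A RefSeq promoter (GRCh38.p14) was found for 8 of the 10 genes; HLA-DRA and CIITA were not among them. The 120 bases from 150 to 31 before the annotated start are printed 5′ to 3′ on the strand of the gene. Capitals mark the letters CNAGNNACNGA, an X-box-like pattern chosen after these promoters had been read, and CCAAT, each searched on both strands.
HLA-DRB1 (chr6:32589879-32589998, minus strand): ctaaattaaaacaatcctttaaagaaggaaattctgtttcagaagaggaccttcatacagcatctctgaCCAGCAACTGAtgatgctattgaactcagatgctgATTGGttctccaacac
HLA-DPA1 (chr6:33073680-33073799, minus strand): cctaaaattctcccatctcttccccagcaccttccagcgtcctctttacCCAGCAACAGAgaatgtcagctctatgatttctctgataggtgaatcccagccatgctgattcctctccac
HLA-DPB1 (chr6:33075840-33075959, plus strand): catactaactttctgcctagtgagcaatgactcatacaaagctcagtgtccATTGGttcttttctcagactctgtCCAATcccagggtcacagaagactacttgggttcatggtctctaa
HLA-DMA (chr6:32953128-32953247, minus strand): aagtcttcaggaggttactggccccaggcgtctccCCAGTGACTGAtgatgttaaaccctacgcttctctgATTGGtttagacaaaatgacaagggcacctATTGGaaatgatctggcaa
CD74 (chr5:150412941-150413060, minus strand): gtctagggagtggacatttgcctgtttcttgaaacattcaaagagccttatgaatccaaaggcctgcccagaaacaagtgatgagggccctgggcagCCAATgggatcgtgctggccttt
HLA-DMB (chr6:32941059-32941178, minus strand): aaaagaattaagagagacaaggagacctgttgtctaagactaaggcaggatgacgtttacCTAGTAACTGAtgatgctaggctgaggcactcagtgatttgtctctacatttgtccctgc

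The X-box-like letters began 81 bases before the start of HLA-DRB1, 101 before HLA-DPA1, 115 before HLA-DMA and 90 before HLA-DMB, always on the gene's own strand. A search of 35116 RefSeq promoters of 300 bases found these letters in 3.35%, CCAAT in 34.6% and both in 1.08%. HLA-DPA1 has a further annotated start farther upstream, whose promoter held neither pattern. The printed HLA-DPA1 promoter held no CCAAT on either strand. The only CCAAT of HLA-DMB began 22 bases before its start, outside the printed stretch. HLA-DPB1 and CD74 held CCAAT but not this spelling of the X box, and no promoter of RFX5, RFXANK or RFXAP held that spelling. A promoter of RFX5 held CCAAT, and none of RFXANK or RFXAP did. These matches describe letters only.

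CIITA (chromosome 16, 10866222 to 10943021, hg38) had the largest difference among the 4 regulators of the set. Its level was 10.1, 9.70, 9.84, 11.1 and 11.2 CPM in knockout libraries 1 to 5, against 3.31, 4.29, 3.94, 3.28 and 3.34 CPM in parental libraries 1 to 5. Every knockout library lay above every parental library, and parental cells were not empty of CIITA. The means were 10.4 ± 0.713 CPM in knockout and 3.63 ± 0.461 CPM in parental cells, 2.86-fold apart, with a log2 fold change of 1.52 (standard error 0.10). The gene has several promoters that are used in different cell types, which a count per gene cannot separate.

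RFX5, the DNA-binding subunit of the RFX complex (chromosome 1), was at 39.9, 37.0, 38.3, 37.2 and 38.0 CPM in knockout libraries 1 to 5, against 38.3, 37.2, 37.9, 38.7 and 40.2 CPM in parental libraries. The 2 groups covered the same range, and the log2 fold change was -0.01 (standard error 0.05). RFXAP, the accessory subunit (chromosome 13), was at 9.04 to 12.2 CPM in knockout and 7.21 to 8.20 CPM in parental libraries, which do not overlap (log2 fold change 0.45, standard error 0.09). Protein-coding genes of chromosome 13 had a median log2 fold change of -0.41, so RFXAP stood 0.86 above its chromosome on the log2 scale. RFXANK, the ankyrin-repeat subunit (chromosome 19), was at 43.9, 47.1, 46.6, 28.4 and 28.1 CPM in knockout libraries 1 to 5, against 31.8, 29.9, 30.6, 22.3 and 22.7 CPM in parental libraries. Its groups overlap over all libraries, and both genotypes were lower in the deep ones. Within each replicate set every knockout library was above every parental one, 1.49-fold on average in the shallow and 1.26-fold in the deep set.

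**Figure D1:**
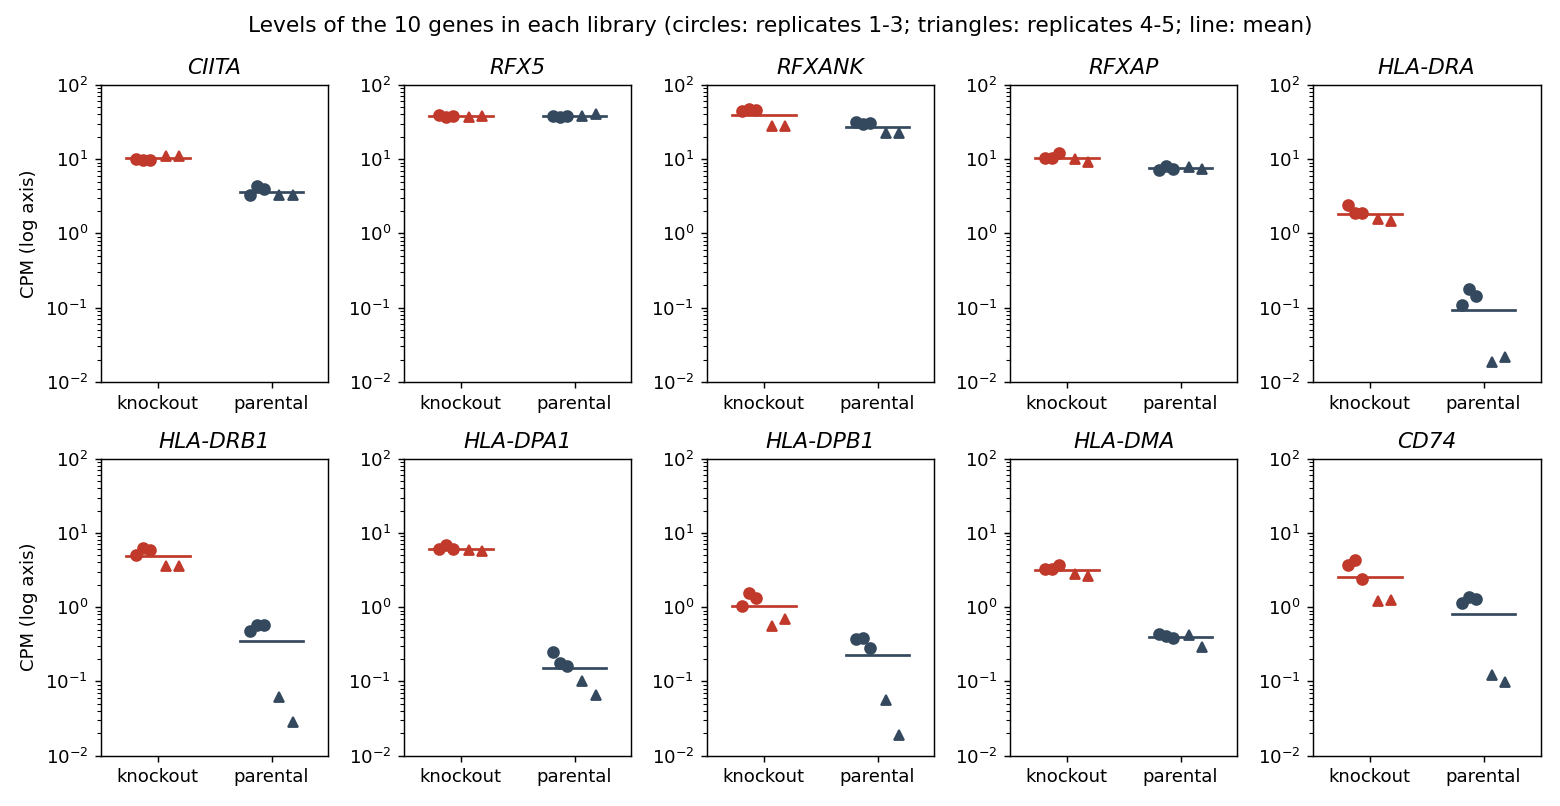
CPM of the 10 genes in each library on a log axis, with knockout left of parental in each panel; circles are replicates 1 to 3, triangles replicates 4 and 5, and lines group means. RFX5 lies at the same level in both genotypes, CIITA is 2.86-fold higher in knockout cells, and the 4 peptide-binding chains are at 0.100 CPM or less in the deep parental libraries and between 0.563 and 6.87 CPM in all knockout libraries. HLA-DMA is at 0.423 and 0.295 CPM in the deep parental libraries.

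Each peptide-binding chain was higher in every knockout library than in any parental library, and the lowest parental levels were in the deep set. HLA-DPA1, the alpha chain of HLA-DP (chromosome 6, 33064569 to 33080775), was at 6.01, 6.87, 6.09, 5.96 and 5.79 CPM in knockout libraries 1 to 5, against 0.252, 0.177, 0.159, 0.100 and 0.0659 CPM in parental libraries. The lowest knockout library was far above the highest parental one. HLA-DRA, the nearly invariant alpha chain of HLA-DR (chromosome 6, 32439842 to 32445046), was at 2.42, 1.87, 1.87, 1.55 and 1.45 CPM in knockout libraries, against 0.110, 0.177, 0.141, 0.0185 and 0.0220 CPM in parental libraries. The 2 deep parental libraries held 7 HLA-DRA counts each, where the deep knockout libraries held 531 and 487.

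HLA-DRB1, the main HLA-DR beta chain (chromosome 6, 32578769 to 32589848), was at 5.12, 6.27, 5.96, 3.62 and 3.55 CPM in knockout libraries, against 0.472, 0.583, 0.583, 0.0608 and 0.0283 CPM in parental libraries. Groups were apart, and in both genotypes the deep libraries were lower. HLA-DPB1, the HLA-DP beta chain (chromosome 6, 33075926 to 33087201), was at 1.04, 1.56, 1.31, 0.563 and 0.699 CPM in knockout libraries, against 0.378, 0.389, 0.283, 0.0555 and 0.0188 CPM in parental libraries. Its groups were apart as well, at the lowest knockout level of the chains. Summed over the 4 chains, knockout libraries held 11.5 to 16.6 CPM, and parental libraries held 1.17 to 1.33 CPM in the shallow set and 0.235 and 0.135 CPM in the deep set. Class II genes are polymorphic and similar to each other, so reads of alleles unlike the reference may be lost or exchanged between them, which was not tested.

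HLA-DMA (chromosome 6, 32948613 to 32969094) was at 3.29, 3.29, 3.65, 2.78 and 2.60 CPM in knockout libraries, against 0.441, 0.406, 0.389, 0.423 and 0.295 CPM in parental libraries. Groups were apart, with knockout means 8.28-fold higher among shallow libraries and 7.49-fold higher among deep libraries. The annotated span of HLA-DMA runs past the start of BRD2 (32968660, plus strand), a gene at 230 ± 2.36 CPM in parental cells. Without strand information reads of that overlap may count for either gene, which was not tested. CD74 (chromosome 5, 150401637 to 150412929) was at 3.65, 4.37, 2.42, 1.22 and 1.26 CPM in knockout libraries, against 1.15, 1.38, 1.31, 0.122 and 0.0973 CPM in parental libraries. The deep knockout libraries lay within the range of the shallow parental ones, so its groups overlap over all libraries, while within each set they were apart.

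On the log2 scale the fold changes were 5.48 for HLA-DPA1 (standard error 0.33), 4.58 for HLA-DRA (0.61), 3.97 for HLA-DRB1 (0.76), 3.00 for HLA-DMA (0.15), 2.31 for HLA-DPB1 (0.72) and 1.71 for CD74 (0.76). The median over the 10 genes was 2.01, beside 0.02 over the 18979 genes tested. In edgeR's fit 7 of the 10 were called higher, where 36.6% of all genes were called and 19.7% called higher, and knockout ranges lay above parental ranges for 7, beside 16.0% of all genes. With the replicate number as a block 9 were called higher, all but RFX5; that fit called 61.2% of all genes, 31.1% higher and 30.1% lower. Since the genes were chosen on this contrast, nothing is read from these counts. All 10 passed the filter on low counts, which needs 0.163 CPM in at least 5 libraries. HLA-DRA, HLA-DRB1, HLA-DPA1, HLA-DPB1 and CD74 were below this level in both deep parental libraries, so they passed through the knockout libraries. HLA-DRA and HLA-DPA1 also had parental means below it.

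**Figure D2:**
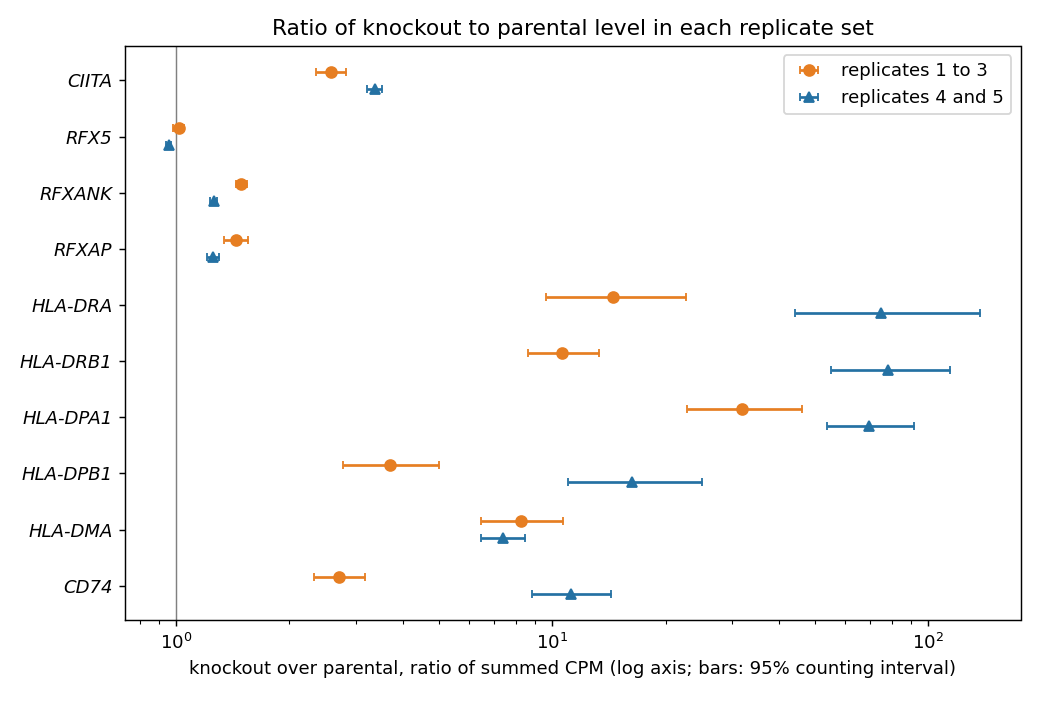
Ratio of summed knockout to summed parental level for each gene, on a log axis, in replicates 1 to 3 (circles) and in replicates 4 and 5 (triangles), with 95% counting intervals. HLA-DRA, HLA-DRB1 and HLA-DPA1 lie between 69.4 and 78.1 in the deep set and between 10.6 and 31.9 in the shallow set, while HLA-DMA lies at 7.38 in the deep and 8.26 in the shallow set.

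The ratio of knockout to parental level differed between the replicate sets for several class II genes, a comparison the choice of genes did not use. In the deep libraries HLA-DRB1 was 78.1-fold higher in knockout cells (95% exact binomial interval of the counts 55.2 to 114), HLA-DRA 74.6-fold (44.3 to 137), HLA-DPA1 69.4-fold (53.7 to 91.4), HLA-DPB1 16.3-fold (11.0 to 24.97) and CD74 11.2-fold (8.86 to 14.3). In the shallow libraries the ratios were 10.6 (8.62 to 13.3), 14.5 (9.65 to 22.7), 31.9 (22.8 to 46.0), 3.71 (2.78 to 5.01) and 2.72 (2.32 to 3.18) in the same order. These intervals cover counting error only. The interaction of genotype with replicate set was 2.86 on the log2 scale for HLA-DRB1 (standard error 0.30, edgeR adjusted p = 0.000996), 2.32 for HLA-DRA (0.41, adjusted p = 0.0298) and 2.04 for CD74 (0.32, adjusted p = 0.0194), beside 0.601% of all genes past the threshold, 0.316% with the higher and 0.285% with the lower fold in the deep libraries. For HLA-DPB1 it was 2.12 (adjusted p = 0.0678), for HLA-DPA1 1.12 (0.0961), for CIITA 0.39 (0.148), for RFXANK -0.25 (0.0958), for RFXAP -0.20 (0.443), for HLA-DMA -0.15 (0.805) and for RFX5 -0.09 (0.483), all by edgeR, none of which passed. HLA-DRA, HLA-DRB1, HLA-DPA1, HLA-DPB1 and CD74 entered the fit through their knockout libraries, so their interaction calls are not read as support. The deep parental libraries held 14 HLA-DRA, 32 HLA-DRB1 and 77 CD74 counts in all. The HLA-DRB1 call held under all 14 alternatives run (highest edgeR or DESeq2 adjusted p 0.0113). That of HLA-DRA was lost without knockout replicate 2, 4 or 5 or parental replicate 2, 3, 4 or 5 (edgeR adjusted p 0.0575 to 0.207), and that of CD74 without knockout replicate 5 or parental replicate 2, 4 or 5 (0.0801 to 0.113).

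Parental levels of these genes differed between the sets to unequal degrees. Shallow parental libraries held 12.3 times the HLA-DRB1 level of the deep ones, 11.7 times that of CD74, 9.41 times that of HLA-DPB1 and 7.05 times that of HLA-DRA, but 2.35 times that of HLA-DPA1, 1.16 times that of CIITA and 1.15 times that of HLA-DMA. Taken as a difference in CPM, not a ratio, knockout minus parental for HLA-DRB1 was 5.24 among shallow and 3.54 among deep libraries. It was 1.91 and 1.48 for HLA-DRA, 6.13 and 5.79 for HLA-DPA1, 0.954 and 0.594 for HLA-DPB1, and 2.20 and 1.13 for CD74. On this scale the shallow set had the larger difference for each of these 5 genes, the reverse of the order of the ratios.

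Transcripts of other tissues moved with the replicate set as well. The 6 skeletal muscle markers, all in the table, summed to 207.6 to 444.5 CPM in shallow knockout and 281.2 to 459.0 CPM in shallow parental libraries, against 23.5 CPM in both deep knockout and 9.69 and 9.78 CPM in the deep parental libraries. TNNT1 alone made up 23.2 and 23.1 CPM of the deep knockout sums and 9.44 and 9.49 CPM of the deep parental ones, and each of the other muscle markers was at 0.159 CPM or less there. The 4 erythroid markers summed to 21.7 to 181 CPM in shallow knockout and 22.4 to 103 CPM in shallow parental libraries, and to at most 0.111 and 0.132 CPM in deep knockout and deep parental ones. PTPRC, which encodes the pan-leukocyte protein CD45, was at 0.279 to 0.808 CPM in shallow knockout and 0.442 to 0.813 CPM in shallow parental libraries, and lower in the deep knockout (0.0321 and 0.0327 CPM) than in the deep parental libraries (0.137 and 0.157 CPM). In the deep libraries the B-cell marker MS4A1, the myeloid marker TYROBP and the dendritic-cell marker CD1C had 0 counts in both genotypes. Each was the only 1 of its list to do so. The 6 B-cell markers summed to 0.321 and 0.354 CPM in deep knockout and 0.156 and 0.192 CPM in deep parental libraries, and the 4 T-cell markers to 0.0357 and 0.0525 CPM against 0.0408 and 0.0634 CPM. Of the B-cell sums BANK1 made up 0.222 and 0.244 CPM in deep knockout and 0.0185 and 0.0157 CPM in deep parental libraries. CD79A went the other way, at 0.0642 and 0.0833 against 0.106 and 0.154 CPM, and the remaining B-cell markers were at 0.0238 CPM or less there. The 4 endothelial markers summed to 0.943 and 1.08 CPM in deep knockout and 0.381 and 0.424 CPM in deep parental libraries, and the 5 liver markers to 1.49 and 1.57 against 0.659 and 0.748 CPM, below their sums in the shallow knockout (2.03 to 3.50 and 37.8 to 69.0 CPM) and shallow parental libraries (1.64 to 1.90 and 25.6 to 65.1 CPM). Of the liver sums SERPINA1 made up 1.34 and 1.37 CPM in deep knockout and 0.560 and 0.493 CPM in deep parental libraries. The 7 monocyte and macrophage markers summed to 6.04 and 6.14 CPM in deep knockout against 1.88 and 1.96 CPM in deep parental libraries, of which 5.69 and 5.80 against 1.48 and 1.62 CPM were CSF1R alone. The 6 dendritic-cell markers summed to 4.15 and 4.21 CPM against 1.45 and 1.49 CPM, of which ITGAX made up 3.05 and 3.10 against 0.436 and 0.531 CPM. In the shallow libraries CSF1R was at 6.43 to 7.06 CPM in knockout and 1.54 to 1.87 CPM in parental cells, and ITGAX at 2.87 to 5.48 and 0.495 to 0.619 CPM. The part of these transcripts in the class II levels of the shallow libraries was not tested. In bulk RNA, more cells carrying class II transcripts and more of them per cell cannot be told apart.

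**Figure D3:**
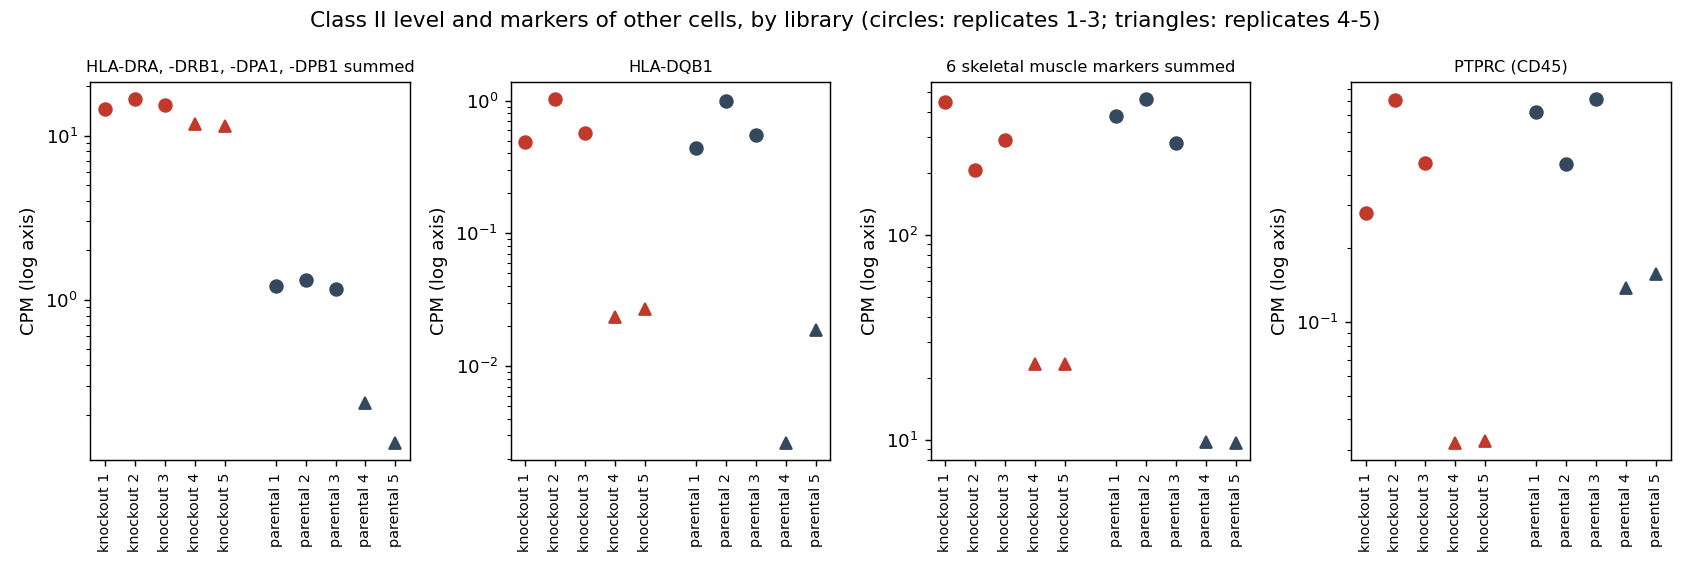
CPM by library on log axes, knockout libraries left of parental ones, for the 4 class II chains summed, HLA-DQB1, the 6 skeletal muscle markers summed and PTPRC. The chain sum is at 11.5 CPM or more in all knockout libraries and at most 1.33 CPM in parental ones, whereas HLA-DQB1, the muscle markers and PTPRC are high in replicates 1 to 3 of both genotypes and low in replicates 4 and 5.

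The class II chains outside the 10 genes were not all called higher. Of 8 such genes 5 passed the filter, and 1, HLA-DMB, was called in edgeR's fit, beside 36.6% of all genes. HLA-DMB, the partner of HLA-DMA, was at 0.745, 0.808, 0.629, 0.589 and 0.517 CPM in knockout libraries, against 0, 0.0530, 0.0354, 0.0344 and 0.00942 CPM in parental libraries (log2 fold change 4.69, standard error 0.50), with 21 counts in all parental libraries together. It passed the filter through the knockout libraries only, so its call is not read as support. All 5 knockout libraries were above all parental ones, and in the deep set the ratio was 24.1 (95% counting interval 14.7 to 42.6). HLA-DRB5, an HLA-DR beta chain close in sequence to HLA-DRB1, missed the filter with 5, 11, 10, 26 and 24 counts in knockout and 1, 1, 0, 1 and 0 counts in parental libraries, and the 2 genes can exchange reads. HLA-DQB1 was at 0.484, 1.02, 0.575, 0.0233 and 0.0268 CPM in knockout libraries 1 to 5, against 0.441, 0.989, 0.548, 0.00264 and 0.0188 CPM in parental libraries 1 to 5 (log2 fold change 0.09, edgeR adjusted p = 0.971). It was present in the shallow libraries of both genotypes, at like levels in libraries of the same number. HLA-DQA1 was at 0.148 ± 0.0509 CPM in knockout and 0.193 ± 0.0349 CPM in parental cells, HLA-DQB2 at 0.269 ± 0.235 and 0.224 ± 0.185 CPM, and HLA-DOB, a chain of the HLA-DM inhibitor HLA-DO, at 0.212 ± 0.101 and 0.194 ± 0.0804 CPM (edgeR adjusted p = 0.424, 0.885 and 0.810). The log2 fold changes of HLA-DQB1 and HLA-DQB2 had standard errors of 1.34 and 1.06, too wide to tell a rise from none. In libraries 4 and 5 HLA-DQB1 had 8 and 9 counts in knockout against 1 and 6 in parental cells. HLA-DQB2 had 6 and 18 against 10 and 7 there. HLA-DOA, at 0.0587 and 0.0462 CPM on average in knockout and parental cells, missed the filter, and HLA-DQA2 had 0 counts in every library.

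Between the start of HLA-DRA and the end of HLA-DPB1 (chromosome 6, 32439842 to 33087201, a stretch of 647 kb) GENCODE annotates 34 genes of the table, of which 18 passed the filter and 5 belong to the 10. Among the 13 others 2 were called higher, HLA-DMB included, and 3 lower, a called share of 38.5% beside 36.6% of all genes, and with the replicate block 3 rose and 6 fell, beside 61.2%. Besides HLA-DMB, PSMB9, an immunoproteasome subunit, rose to 8.24 ± 2.93 CPM in knockout cells, against 4.51 ± 1.23 CPM in parental cells (log2 fold change 0.87, edgeR adjusted p = 0.0284). That call was lost without knockout replicate 1, 2 or 3 or parental replicate 2, 4 or 5 (edgeR adjusted p 0.0641 to 0.0737). TAP2, a subunit of the peptide transporter of MHC class I, fell to 89.6 ± 3.72 CPM in knockout cells, against 118 ± 1.32 CPM in parental cells (log2 fold change -0.40, edgeR adjusted p = 1.20e-04). BRD2, a bromodomain protein, fell to 157 ± 3.49 CPM in knockout cells, against 230 ± 2.36 CPM in parental cells (-0.55, edgeR adjusted p = 5.64e-06). Its annotated span overlaps that of HLA-DMA on the other strand. ENSG00000223837 fell as well, at 0.261 ± 0.0817 CPM in knockout and 0.489 ± 0.114 CPM in parental cells (-0.88, edgeR adjusted p = 0.0177). TAP1, PSMB8, PSMB8-AS1 and ENSG00000250264 had log2 fold changes of -0.17, 0.22, -0.28 and -0.19 and did not pass (edgeR adjusted p = 0.180, 0.209, 0.267 and 0.662); with the replicate block all of them passed, PSMB8 higher and the others lower (adjusted p 0.00874 to 0.0347). Without strand information PSMB8 and PSMB8-AS1 may share reads, and so may HLA-DPA1 and HLA-DPB1, whose annotated spans also overlap on opposite strands. ENSG00000223837 lies within the span of BRD2 on the same strand, so its call may not be separate from that of BRD2. The protein-coding genes of chromosome 6 as a whole had a median log2 fold change of -0.32. Relative to that median TAP2 stood at -0.08, BRD2 at -0.23, ENSG00000223837 at -0.56 and PSMB9 at 1.19.

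**Figure D4:**
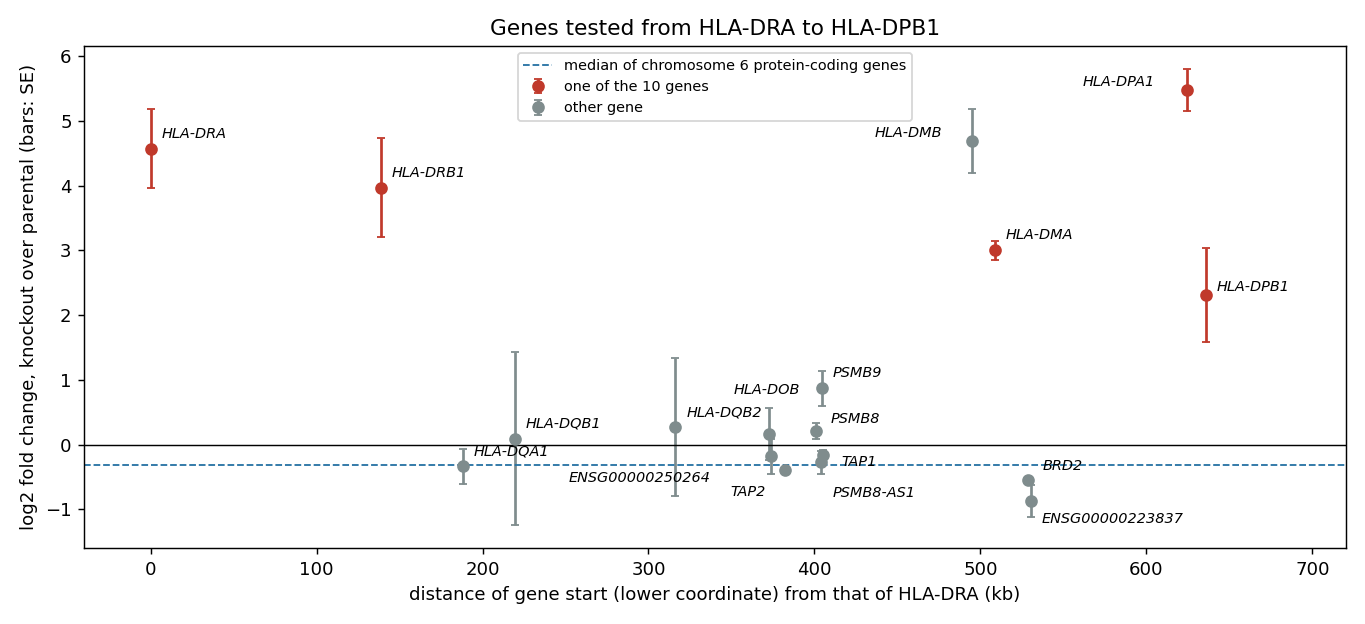
Log2 fold change, knockout over parental, with its standard error, against the distance of each tested gene from HLA-DRA in kb; the dashed line is the median of chromosome 6 at -0.32. HLA-DMB and the 5 class II genes described here lie at 2.31 or above, and the other tested genes lie between -0.88 and 0.87.

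Other regulators of the pathway were mostly level or lower. Of 5 NF-Y and CREB-family genes 3 fell and none rose, beside 36.6% of all genes called and 16.9% called lower: NFYB, a histone-fold subunit of NF-Y, was at 21.2 ± 1.15 CPM in knockout and 26.3 ± 2.61 CPM in parental cells (edgeR adjusted p = 0.0111), NFYC at 43.8 ± 1.82 and 48.8 ± 1.58 CPM (0.0469), and ATF1, a relative of CREB1, at 19.8 ± 2.47 and 26.4 ± 3.15 CPM (0.0124). The NFYC call was lost without any 1 library other than knockout replicate 2 (edgeR adjusted p 0.0539 to 0.0972) and under 3 other settings, and that of NFYB with no filter on low counts (0.0513). None of 6 coactivator genes passed in edgeR, with SMARCA4, an ATPase of the SWI/SNF remodeller, at 211 ± 13.3 and 225 ± 15.3 CPM and CARM1, an arginine methyltransferase, at 123 ± 21.2 and 134 ± 16.9 CPM. Of the 4 tested RFX factors outside the complex none passed in edgeR, including RFX7 at 33.6 ± 9.24 and 30.8 ± 6.47 CPM and RFX1 at 22.9 ± 3.70 and 21.4 ± 3.14 CPM. With the replicate block, which called 61.2% of all genes and 30.1% lower, 5 NF-Y and CREB-family genes fell, 1 coactivator rose and 3 fell, SMARCA4 (log2 fold change -0.09) and CARM1 (-0.13) among them, and 2 RFX factors fell. The coactivator that rose was KAT2B (0.39, edgeR adjusted p = 9.24e-05), at 15.1 ± 3.23 CPM in knockout and 11.5 ± 2.35 CPM in parental cells.

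The interferon-gamma route to CIITA showed no gene that rose in edgeR's fit on genotype. IFNG had 0 counts in every library. Of 10 tested genes 2 fell and none rose, a called share of 20% beside 36.6% of all genes: IRF2, which competes with IRF1 for its sites and also acts on the CIITA promoter, was at 14.4 ± 0.841 CPM in knockout and 17.7 ± 1.07 CPM in parental cells (log2 fold change -0.29, edgeR adjusted p = 0.00623), and the receptor chain IFNGR1 at 12.9 ± 1.22 and 16.3 ± 1.85 CPM (-0.33, edgeR adjusted p = 0.0209). IFNGR1 lies on chromosome 6, and relative to the median of its chromosome it stood at -0.01. The IFNGR1 call was lost without parental replicate 4 or 5, without TMM scaling and when low counts were not filtered (edgeR adjusted p 0.0530 to 0.0734). IRF1, a transcription factor induced by interferon-gamma, was at 15.3 ± 1.91 CPM in knockout and 17.9 ± 0.526 CPM in parental cells and did not pass (edgeR adjusted p = 0.0608). With the replicate block 4 of the list rose and 3 fell, beside 61.2% of all genes called. IRF1 then fell (log2 fold change -0.24, edgeR adjusted p = 0.00551). The 4 that rose were the kinases JAK1 (0.17, edgeR adjusted p = 0.00568) and JAK2 (0.18, 0.00875), USF1, a factor that binds the CIITA promoter (0.29, 1.73e-04), and SOCS1, a feedback inhibitor of JAK signalling (0.88, 0.00144).

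Of 6 genes reported in other systems to repress CIITA, 5 fell and none rose, beside 16.9% of all genes called lower. With the replicate block 6 fell, beside 30.1%. The list was chosen with earlier results of these data known, so nothing is read from these counts. PRDM1, which encodes the repressor Blimp-1 that silences CIITA in plasma cells, was at 0.335, 0.366, 0.341, 0.257 and 0.321 CPM in knockout libraries 1 to 5, against 0.913, 1.17, 1.27, 1.39 and 1.34 CPM in parental libraries (edgeR adjusted p = 7.15e-06, log2 fold change -1.92, standard error 0.16). The groups were apart, at a low level in both. EZH2, the histone H3K27 methyltransferase of Polycomb, was at 50.3 ± 1.88 CPM in knockout and 94.7 ± 5.71 CPM in parental cells (-0.91, edgeR adjusted p = 1.49e-06), the histone deacetylase HDAC2 at 146 ± 14.3 and 222 ± 26.5 CPM (-0.60, edgeR adjusted p = 7.21e-04), and the maintenance DNA methyltransferase DNMT1 at 360 ± 7.88 and 412 ± 14.4 CPM (-0.19, edgeR adjusted p = 0.00860). The DNMT1 call was lost without TMM scaling and when low counts were not filtered (0.0636 and 0.107). PRDM1 and HDAC2 lie on chromosome 6 and EZH2 on chromosome 7, whose median log2 fold changes were -0.32 and -0.30. Relative to its chromosome's median PRDM1 stood at -1.60, EZH2 at -0.61, HDAC2 at -0.28 and DNMT1, on chromosome 19, at -0.37. These proteins have many other targets, and EZH2, HDAC2 and DNMT1 are also genes of dividing cells.

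Among 11 genes of class II peptide loading and turnover 5 rose and 2 fell in edgeR's fit, beside 36.6% of all genes called, and 7 rose and 3 fell with the replicate block, beside 61.2%. LGMN, the endosomal asparagine endopeptidase, rose to 13.7 ± 0.372 CPM in knockout cells, against 5.48 ± 0.240 CPM in parental cells (log2 fold change 1.32, edgeR adjusted p = 1.45e-07). CTSF, a cathepsin able to process the invariant chain, rose to 4.90 ± 1.07 CPM in knockout cells, against 1.40 ± 0.270 CPM in parental cells (1.81, edgeR adjusted p = 3.48e-05). IFI30, the thiol reductase GILT of class II compartments, was at 1.36 ± 0.179 and 0.447 ± 0.238 CPM (1.58, edgeR adjusted p = 0.0118). Cathepsin S, CTSS, which makes the last cut in CD74 in professional antigen-presenting cells, fell to 0.406 ± 0.126 CPM in knockout cells, against 1.14 ± 0.170 CPM in parental cells (-1.51, edgeR adjusted p = 2.80e-04). MARCHF1, a ubiquitin ligase that removes class II from the surface of resting antigen-presenting cells, fell to 3.66 ± 1.27 CPM in knockout cells, against 9.80 ± 2.03 CPM in parental cells (-1.41, edgeR adjusted p = 9.45e-04). Its groups were apart, with deep libraries higher in both genotypes. Of the CD74 partners, the cytokine MIF was at 408 ± 137 and 309 ± 73.9 CPM (edgeR adjusted p = 0.244) and its co-receptor CD44 at 1001 ± 207 and 974 ± 183 CPM (0.891), neither of which passed, while CXCR2, CXCR4 and ACKR3 missed the filter. With the replicate block MIF rose (0.37, adjusted p = 0.00140).

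**Figure D5:**
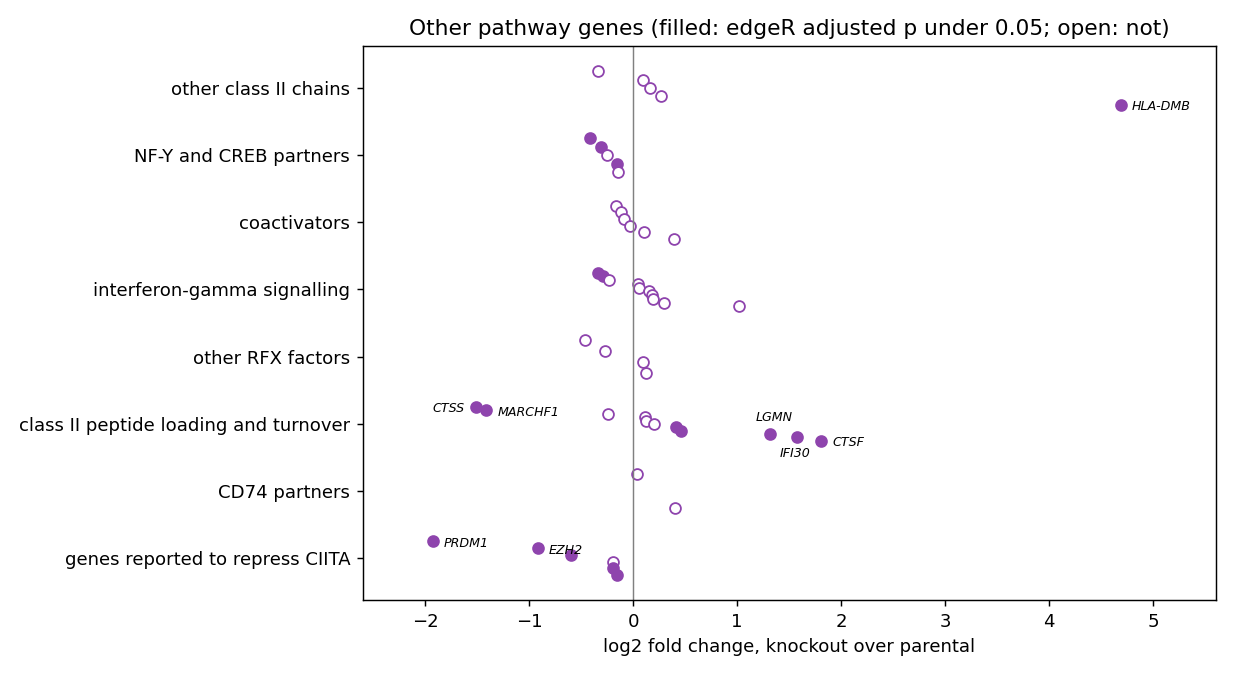
Log2 fold change, knockout over parental, of the other tested pathway genes by list; filled points had an edgeR adjusted p under 0.05. HLA-DMB stands apart at 4.69, the loading and turnover genes spread from -1.51 to 1.81, and all filled points of the repressor list are below 0.

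Over all these lists 57 of 80 genes were tested, of which 7 were called higher and 15 lower, a called share of 38.6% beside 36.6% of all genes. Their median log2 fold change was -0.09, beside 0.02 over all genes. With the replicate block 16 were called higher and 28 lower, beside 31.1% and 30.1% of all genes.

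Levels were also set per kb of exon. With all annotated exons merged, RFXANK (15.5 ± 3.89 CPM per kb in knockout and 11.0 ± 1.84 in parental cells) and RFX5 (8.31 ± 0.249 and 8.39 ± 0.248) stood above the other 8 genes in both genotypes. Among the class II chains HLA-DRB1 was highest in knockout cells (3.99 ± 1.04 CPM per kb, 0.281 ± 0.227 in parental cells). HLA-DRA, HLA-DMA and HLA-DPA1 followed at 1.43 ± 0.296, 1.23 ± 0.168 and 1.07 ± 0.0728 CPM per kb in knockout cells, with ranges that overlap, and HLA-DPB1 was lowest at 0.371 ± 0.148. The order in the middle depends on the length used. Over the median length of coding transcripts HLA-DPA1 (5.36 CPM per kb) and CIITA (5.35) came before HLA-DRB1 (3.99) in knockout cells, while RFX5 and RFXANK stayed highest and HLA-DPB1 lowest.

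The genes whose log2 CPM over the 10 libraries was most like that of HLA-DPA1 were VWA5A (r = 0.999), CELSR3 (0.997), PDE2A (0.997), ZNF469 (0.996) and ADGRG1 (0.995). These correlations describe 10 libraries that share the gap between the genotypes, and of 13783 protein-coding genes 557 had a correlation of at least 0.95. Among the other 9 genes described here the correlation with HLA-DPA1 was highest for HLA-DMA (0.992) and CIITA (0.980), lower for CD74 (0.741) and RFXANK (0.698), and -0.28 for RFX5.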

How the data were processed

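Polyadenylated RNA of 10 libraries was measured. The authors deposited 1 estimated count per gene and library, unscaled for depth or length, made with kallisto 0.48.0 on hg38 per the submitters' processing notes. The sources used here name no annotation release, strand setting or transcript-to-gene step. Estimated counts were rounded. Genes were kept with edgeR's filterByExpr (at least 10 counts at the median library total, which is 0.163 CPM, in at least 5 libraries), which left 18979 of 62700. TMM scaling and a robust quasi-likelihood fit on genotype were run with edgeR (version 4.0.16, under R 4.3.3), and p-values were adjusted by Benjamini-Hochberg over all genes kept and a threshold of 0.05. Levels are CPM on the scaled library sizes. The interaction of genotype with replicate set (1 to 3, or 4 and 5) was tested in the same way. The fits were also run on simulated counts. These held no general difference between the replicate sets, so that run does not show how the fits perform on the split seen here.

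Positions and lengths are from GENCODE 29 (GRCh38), joined on unversioned gene IDs, which found 95.1% of tested genes. Promoters are from RefSeq (GRCh38.p14).

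Same-numbered knockout and parental libraries deviated together from their group means (correlation across genes 0.641, 0.586, 0.606, 0.897 and 0.892 for numbers 1 to 5). All exceed the 0.1 taken to pair samples. This follows the split into replicate sets, and the labels name no shared batch. The fit with the replicate number as a block is given where it moves a count or a call.

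The 10 genes, the gene lists and the marker lists were chosen with earlier results of these data known. Named from each list were up to 4 genes past 0.05 with the smallest adjusted p, 2 a direction where available, or, where none passed, up to 2 with the highest mean CPM; also every tested gene between HLA-DRA and HLA-DPB1 and the 5 protein-coding genes most correlated with HLA-DPA1. IFI30, SOCS1, IRF1, JAK1, JAK2, USF1, KAT2B, the untested class II chains and single markers were named after their values were seen. Alternatives were DESeq2 (1.42.0) and its size factors, library size only, other filters, the block, the replicate set as a term or alone, the chromosome median subtracted, and each library left out.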

Additional observations from a re-analysis of the deposited data

Results flagged for a closer look

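HLA-DPA1 in knockout replicate 2, at 6.87 CPM, stood apart from the other 4 knockout libraries at 5.79 to 6.09 CPM, with a gap of 0.724 of the group's range against a critical value of 0.71. It was the only one of 84 groups of 5 examined to do so, where chance flags about 1 in 20. The interaction of genotype with replicate set passed for HLA-DRA (2.32 on the log2 scale, edgeR adjusted p = 0.0298), HLA-DRB1 (2.86, adjusted p = 0.000996) and CD74 (2.04, adjusted p = 0.0194), out of 47 genes examined. In each case the fold was larger in the deep libraries, where the parental level was lower, and the part of other tissues' transcripts in this was not tested. These genes entered the fit through their knockout libraries, so the calls are not read as support. The deep parental libraries held 14 HLA-DRA, 32 HLA-DRB1 and 77 CD74 counts in all. The calls of HLA-DRA and CD74 were lost without some single libraries.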

How the results depend on the processing

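Over all genes, 3741 were higher and 3198 lower. The replicate block gave 5906 and 5713, the replicate set as a term 6200 and 5949, the shallow libraries alone 4980 and 4931, and the deep libraries alone 7775 and 7545. For the other pathway genes, 7 higher and 15 lower became 16 and 28 with the block, 17 and 27 with the replicate set as a term, 13 and 22 in the shallow and 19 and 29 in the deep libraries alone. Leaving out each library gave 3318 to 3709 higher and 2765 to 3196 lower genes, and 5 to 9 higher and 12 to 17 lower pathway genes. The interaction passed for 114 genes, 1256 with no filter on low counts and 988 with DESeq2. Without single libraries it ran from 10 to 2451; it was 2451 without knockout replicate 1, 20 without knockout replicate 2, 10 without knockout replicate 5, 12, 65, 11 and 20 without parental replicates 2, 3, 4 and 5. The cause was not tested. Interaction calls were gained by HLA-DPA1 and RFXANK with no filter, with DESeq2 and without knockout replicate 1, by HLA-DPB1 with no filter and without knockout replicate 1, and by CIITA with DESeq2. No other alternative run moved any of these counts by more than 1.5 times.

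For 9 of the 10 genes the log2 fold change kept its sign under every alternative run. RFX5 ran from -0.09 to 0.04. HLA-DPA1 ran from 4.98 to 6.10, HLA-DRA from 3.83 to 6.18, HLA-DRB1 from 3.40 to 6.26, HLA-DPB1 from 1.88 to 4.00, CD74 from 1.40 to 3.47, HLA-DMA from 2.88 to 3.32 and CIITA from 1.35 to 1.74. HLA-DPB1 gave no value where 1 CPM in 5 libraries was required. Parental counts as low as 6 for HLA-DPB1 and 7 for HLA-DRA in a library limit the precision of the folds.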
